A study of Homo sapiens with 4 samples.

Results

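The 75 genes described here code for mitochondrial ribosomal proteins and were read in MCF10A cells with hairpins against Cbl and Cbl-b and in control cells. They were chosen by name: the gene symbol in the annotation of the array begins with MRPL or MRPS and goes on with a digit. This rule found 77 symbols on 142 probe sets, of 19777 genes that had a probe set of their own. Of the 77, 75 were protein coding, 48 of them named for the large subunit (MRPL) and 27 for the small subunit (MRPS). The remaining symbols were MRPL20-AS1, an antisense RNA, and MRPL45P2, a pseudogene that was too dim to be tested. Another 4 probe sets carried an MRPL or MRPS symbol together with a second gene and were left out, so that MRPL53 and MRPS24 were not analysed here.

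MCF10A is a line of human breast epithelial cells that is not tumorigenic. Total RNA was labelled with biotin without amplification and read on 4 Affymetrix U133 Plus 2.0 arrays, on which each probe set is a group of short oligonucleotides for a transcript. In the group labelled double knockdown (2 arrays, n = 2) the cells carried shRNA against Cbl and Cbl-b, ubiquitin ligases that tag activated growth factor receptors for breakdown. In the control group (n = 2) they carried a control shRNA. All cells were taken during normal growth in the same medium, DFCI-1. The labels do not state whether duplicates were separate cultures or whether the cells were clones. A p-value below therefore measures the spread between arrays of a group, and that spread may be purely technical.

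Mitochondria keep a small genome of their own, which codes for core subunits of the respiratory chain and of ATP synthase. Those subunits are made by the mitochondrial ribosome, whose ribosomal RNA comes from the mitochondrial genome while its proteins are all encoded in the nucleus, made in the cytosol and imported. Some of these proteins descend from bacterial ribosomal proteins and others are found only in mitochondria. The large subunit joins amino acids and holds the exit tunnel. The small subunit binds the messenger and reads its codons.

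The targeted transcripts were read first, as a check of the labels. CBL had an intensity of 31.1 and 29.0 in the arrays labelled double knockdown, against 126 and 84.4 in the control arrays. It was lower in both arrays labelled double knockdown, with a log2 change of -1.37 ± 0.15 (SE) (adjusted p = 0.00139, limma). These values are from the brightest probe set. Further CBL probe sets above the brightness minimum had smaller changes, -0.33 and -0.20, and a further CBLB probe set had one of 0.40. CBLB had 94.8 and 99.5 in the arrays labelled double knockdown, against 64.3 and 70.0 in the control arrays, and was higher, with a log2 change of 0.45 ± 0.09 (adjusted p = 0.0148). The CBLB transcript thus went against the label, and the arrays are called by their label throughout. Median intensities over all probe sets were 14.5 to 14.7 in the 4 arrays. The 6 epithelial markers found were all above the brightness minimum, with summed intensities of 16722 to 17150 in the arrays labelled double knockdown and 27831 to 27925 in the control arrays, and 4 of them were called, in both directions. The basal keratin KRT14 had 4709.9 and 4266 in the arrays labelled double knockdown, against 13558 and 14078 in the control arrays, and fell by 1.62 on the log2 scale (adjusted p = 6.37e-05). The basal keratin KRT5 had 4824 and 4872 in the arrays labelled double knockdown, against 8245 and 7866 in the control arrays, and fell by 0.73 (adjusted p = 0.0017). KRT18, a keratin of luminal cells, rose by 0.53 (adjusted p = 0.00998) and the epithelial adhesion gene EPCAM by 0.40 (adjusted p = 0.0272), while CDH1 and ITGA6 were not called. These marker changes accompany every result on the members given below. Of 5 leukocyte markers found, 3 were above that minimum, with sums of 1029 to 1123 in the arrays labelled double knockdown and 278 to 284 in the control arrays. Nearly all of that sum was CD14, with 976 and 1074 in the arrays labelled double knockdown, against 229 and 231 in the control arrays, while the pan-leukocyte marker PTPRC and the lysozyme gene LYZ were below the minimum. Of 8 fibroblast and endothelial markers, 3 were above it, with sums of 211 to 233 in the arrays labelled double knockdown and 240 to 245 in the control arrays. The part of these shifts in the results below was not tested.

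Most mitochondrial ribosomal protein transcripts were slightly lower in the arrays labelled double knockdown. The change was below 0 for 59 of the 75 genes (78.7%, against 52.0% of all genes tested). Members also moved together between replicates, array 2 being brighter than array 1 for 65 of 75 in each group. The counts of genes given here are therefore not independent evidence. The median log2 change was -0.18, a difference of -11.9%, beside a median of -0.01 over the 12951 genes tested. All 75 passed the brightness minimum, a mean intensity of 14.7. Of them 11 (14.7%) were called lower by limma at an adjusted p under 0.05, against 6.6% of all genes tested and 9.87% of the 6089 genes whose intensity lay within the range of the members. None was called higher, against 9.41% of all genes. At an unadjusted p under 0.05 (limma), 1 member was higher and 30 were lower. Of all 12951 genes, 2079 were higher and 1880 lower at that threshold. Both arrays labelled double knockdown lay below both control arrays for 46 genes (61.3%, against 29.3% of all genes). They lay above both for 4 (5.33%, against 28.1% of all genes), and the groups overlapped for 25. The share below was 34.3% among the equally bright genes. In bulk RNA, less of these transcripts in each cell and fewer cells that carry them cannot be told apart. Every call was lost when either array labelled double knockdown was left out, and 2 calls, MRPS15 and MRPL18, were left without control array 2. Of all genes, 1.49% and 1.22% were called lower without array 1 and array 2 of the double knockdown label, so that calls were few everywhere in those refits. Without control array 2, 2.67% of the members and 6.76% of all genes were called lower, and without control array 1, 13.3% of the members and 4.92% of all genes. In data simulated with 200 of 12951 genes changed, the same test recovered 0% of genes with a true log2 change of 0.25. It recovered 8.96% of those with 0.4, a size close to that of the called members. In the data themselves 855 genes were called lower and 1219 higher. With fewer changed genes the adjustment is stricter, so the simulated shares are not the recovery in these data.

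**Figure D1:**
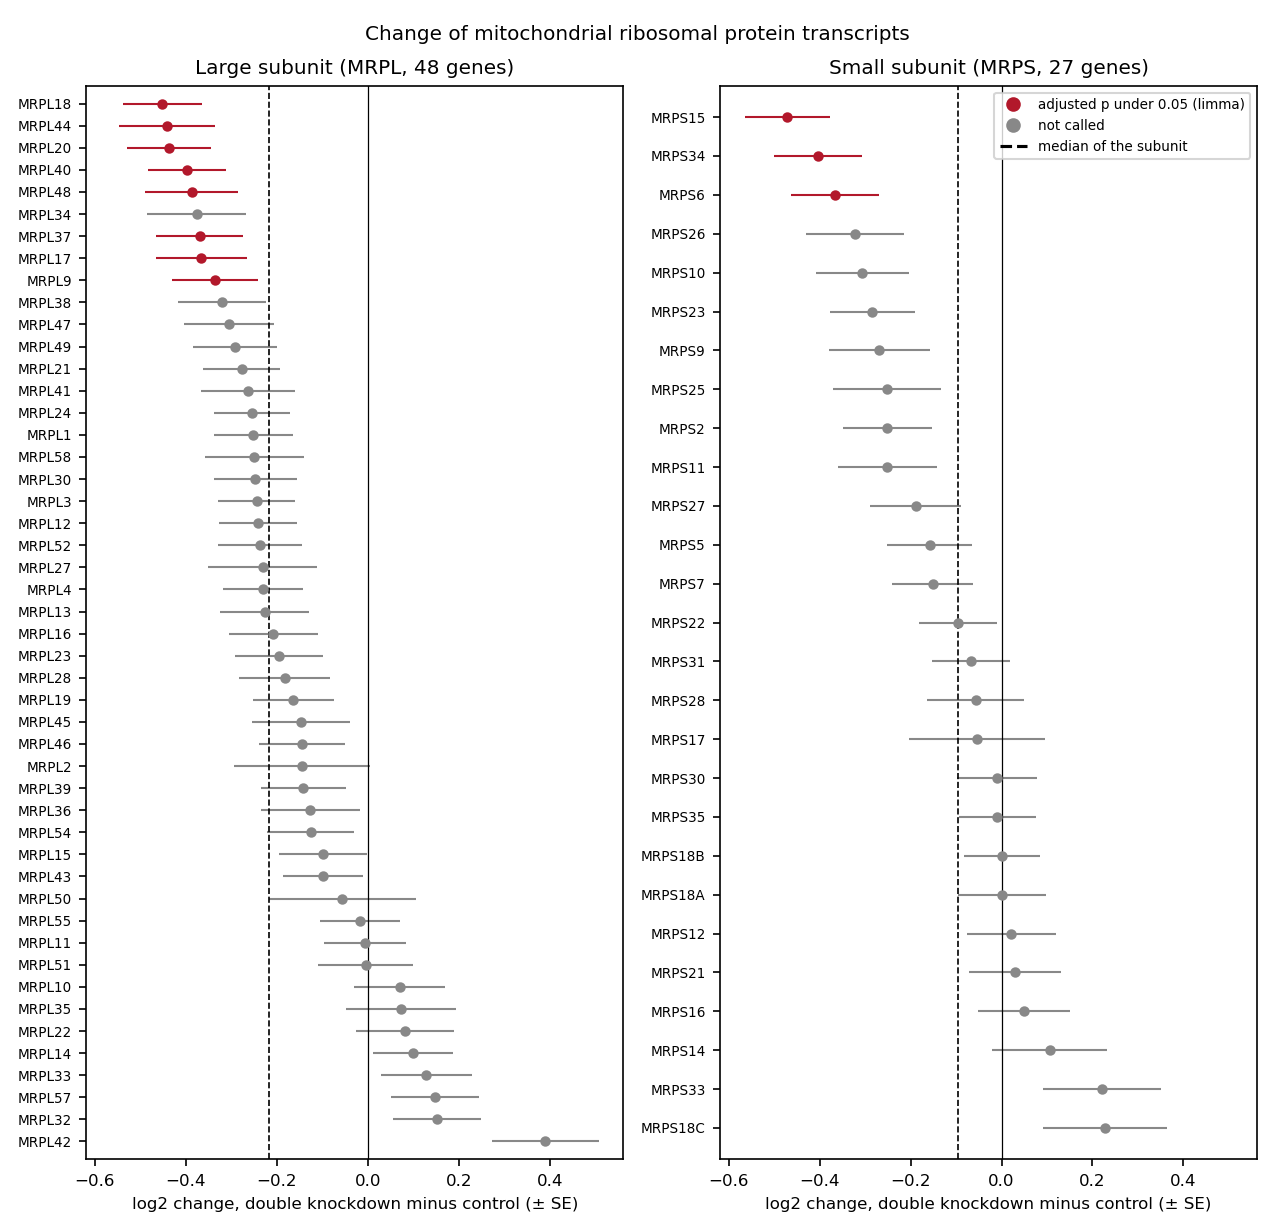
Log2 change (horizontal axis, arrays labelled double knockdown minus control arrays, ± SE) of each of the 48 large subunit and 27 small subunit genes, sorted by change. Red points were called by limma at an adjusted p under 0.05 and dashed lines are the medians. The 11 red points all lie below 0, and 40 large and 19 small subunit genes have a change below 0.

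Among the large subunit genes, 8 of 48 fell (16.7%, against 9.87% of equally bright genes and 6.6% of all genes). MRPL18, a protein of the central protuberance (the crown of the large subunit, facing the small one), had an intensity of 1130.4 and 1167 in the arrays labelled double knockdown, against 1530.4 and 1624 in the control arrays. The groups were far apart and the fall was 1.37-fold, -0.45 ± 0.09 on the log2 scale (adjusted p = 0.0133), the lowest adjusted p of all members. MRPL40 and MRPL48 belong to the same crown and have no bacterial counterpart. MRPL40 had 483 and 504 in the arrays labelled double knockdown, against 639.8 and 670.0 in the control arrays, and fell by 0.40 (adjusted p = 0.0199). MRPL48 had 271 and 319 in the arrays labelled double knockdown, against 382 and 397 in the control arrays, and fell by 0.39 (adjusted p = 0.039). In both, the lower control array was above the higher array labelled double knockdown.

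MRPL44, which has the fold of a ribonuclease III, had 273 and 323 in the arrays labelled double knockdown, against 393 and 427 in the control arrays. It fell by 0.44 on the log2 scale (adjusted p = 0.0286). MRPL20, a bacterial-type protein that binds ribosomal RNA, had 804 and 838 in the arrays labelled double knockdown, against 1062 and 1175 in the control arrays, and fell by 0.44 (adjusted p = 0.0179). Its replicates differed by 0.06 on the log2 scale in the arrays labelled double knockdown and by 0.14 in the control arrays, less than the gap between the groups. MRPL20-AS1, transcribed from the opposite strand, had 40.8 and 38.6 in the arrays labelled double knockdown, against 53.6 and 51.0 in the control arrays, and its change of -0.29 was not called (adjusted p = 0.0544).

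MRPL37, found only in mitochondria, had 547 and 622 in the arrays labelled double knockdown, against 752 and 765 in the control arrays, and fell by 0.37 (adjusted p = 0.0361). MRPL17, a bacterial-type protein near the exit of the tunnel, had 353 and 355 in the arrays labelled double knockdown, against 426 and 499 in the control arrays, and fell by 0.37 (adjusted p = 0.0454). Here the arrays labelled double knockdown were nearly equal and the control arrays differed from each other. MRPL9, a bacterial-type protein, had 1297 and 1313 in the arrays labelled double knockdown, against 1554 and 1753 in the control arrays, and fell by 0.34 (adjusted p = 0.0485), which is close to the threshold. MRPL34, a small bacterial-type protein, was just outside it, with 690.2 and 806 in the arrays labelled double knockdown, against 915 and 1036 in the control arrays, a change of -0.38 and an adjusted p of 0.055.

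Among the small subunit genes, 3 of 27 fell (11.1%), a share close to the 9.87% of equally bright genes called lower and above the 6.6% of all genes. MRPS15, a bacterial-type protein of the platform, had 1459 and 1634 in the arrays labelled double knockdown, against 2196 and 2099 in the control arrays. This was the widest gap of any member, a 1.39-fold fall and a log2 change of -0.47 ± 0.09 (adjusted p = 0.0151). MRPS34, a mitochondria-specific protein in which mutations cause a form of Leigh syndrome, had 498 and 533 in the arrays labelled double knockdown, against 646 and 730.0 in the control arrays, and fell by 0.40 (adjusted p = 0.0288). MRPS6, another bacterial-type platform protein, had 913 and 1007 in the arrays labelled double knockdown, against 1179 and 1305 in the control arrays, and fell by 0.37 (adjusted p = 0.0409). In each of the 3 the groups did not overlap. Across the 11 called genes the falls were 1.26 to 1.39-fold, and all of the calls had an adjusted p between 0.0133 and 0.0485.

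**Figure D2:**
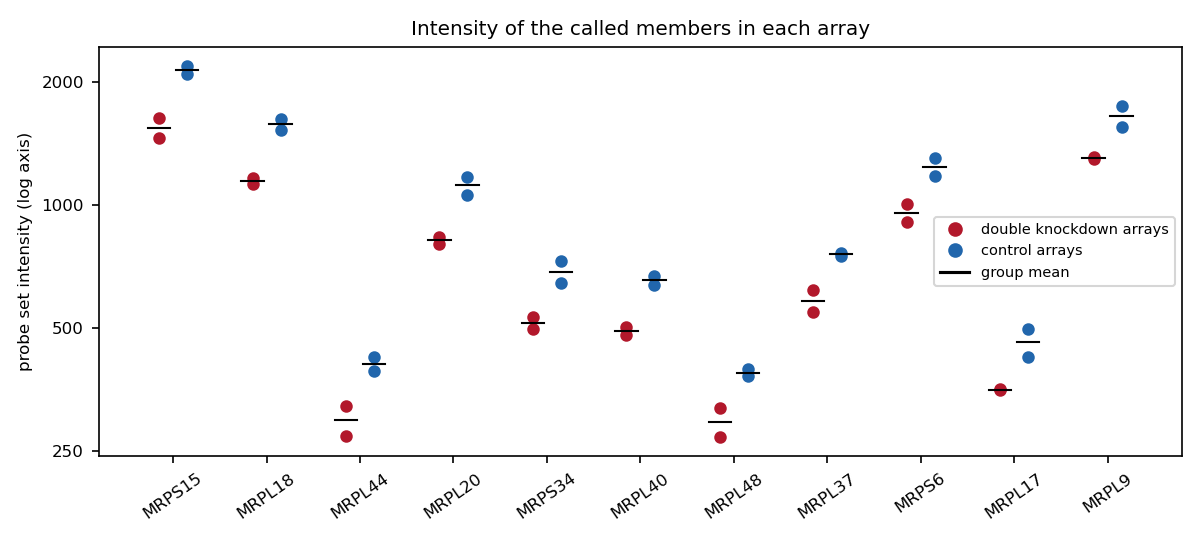
Probe set intensity (vertical log axis) of the 11 members called lower, in the 2 arrays labelled double knockdown (red) and the 2 control arrays (blue), with group means as bars. In every gene both red points lie below both blue points, and the gap is widest for MRPS15 (1.39-fold) and narrowest for MRPL9 (1.26-fold).

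The promoters of the members are shown because genes that code for mitochondrial ribosomal proteins share known regulators: the ETS factor GABPA (also called NRF-2) and NRF1 drive many nuclear genes for mitochondria. RefSeq promoters (GRCh38.p14, the 250 bases before the first listed transcript start) were matched for 67 of the 75 genes. The core CCGGAAG, which ETS factors bind, was found on either strand in 22 member promoters (32.8%), against 11.8% of 15843 promoters of protein coding genes. The NRF1 core GCATGCGC was found in 6 (8.96%, against 3.70% of all promoters) and the E-box CACGTG in 6 (8.96%, against 7.84%). The GC box GGGCGG was present in 55.2% of member promoters and 56.0% of all, CCAAT in 28.4% of member promoters and 34.5% of all, and the core TGACGTGG, which XBP1 binds, in 0 of the 67 and in 0.682% of all. A motif was counted whether or not it overlapped another, and a match is a stretch of letters, not a measured binding site. All 11 genes called lower had a promoter entry, and 4 of these held CCGGAAG. Their matches, with up to 10 bases on each side, are shown with the core in capitals, read 5′ to 3′ on the strand that holds it, and with the distance from the start.
MRPL20, chr1:1407321-1407347, - strand, 44 bases before the start: gaccttcgccCCGGAAGtatcgcaggg
MRPL20, chr1:1407298-1407324, - strand, 21 bases before the start: aggggctgacCCGGAAGcgctcgtgac
MRPL48, chr11:73787801-73787827, - strand, 63 bases before the start: cattttagttCCGGAAGcttctgaaat
MRPS34, chr16:1773189-1773215, + strand, 71 bases before the start: tcggtcgcggCCGGAAGcgaggaagag
MRPS34, chr16:1773147-1773173, + strand, 29 bases before the start: ccggaagtcaCCGGAAGaggccggtgt
MRPS34, chr16:1773137-1773163, + strand, 19 bases before the start: agcggtccggCCGGAAGtcaccggaag
MRPL40, chr22:19432524-19432544, + strand, 11 bases before the start: gggcgcacgcCCGGAAGcggc

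The promoters of MRPS15 and MRPL18, the members with the largest falls, and of MRPL42 and MRPS18C, the highest member of each subunit, are printed in full with every match to the 6 motifs in capitals, on either strand. That of MRPS15 holds a GC box 78 bases before the start and that of MRPL18 a GC box at 81 bases and a CCAAT box at 60 bases. None of the 6 motifs was found in the MRPL42 window, while that of MRPS18C holds the ETS core at 222 bases, CCAAT at 193 bases, the E-box at 179 bases and the NRF1 core at 136 bases before the start.
MRPS15, chr1:36464385-36464634, - strand: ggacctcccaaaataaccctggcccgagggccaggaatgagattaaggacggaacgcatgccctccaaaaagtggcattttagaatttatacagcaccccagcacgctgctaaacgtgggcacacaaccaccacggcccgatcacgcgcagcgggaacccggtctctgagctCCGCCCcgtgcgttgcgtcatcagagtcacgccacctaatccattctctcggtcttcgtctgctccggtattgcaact
MRPL18, chr6:159789562-159789811, + strand: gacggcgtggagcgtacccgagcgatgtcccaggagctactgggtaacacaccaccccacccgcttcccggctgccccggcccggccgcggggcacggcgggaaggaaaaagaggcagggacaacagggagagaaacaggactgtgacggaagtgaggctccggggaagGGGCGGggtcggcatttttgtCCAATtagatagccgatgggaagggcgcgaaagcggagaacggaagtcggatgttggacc
MRPS18C, chr4:83455808-83456057, + strand: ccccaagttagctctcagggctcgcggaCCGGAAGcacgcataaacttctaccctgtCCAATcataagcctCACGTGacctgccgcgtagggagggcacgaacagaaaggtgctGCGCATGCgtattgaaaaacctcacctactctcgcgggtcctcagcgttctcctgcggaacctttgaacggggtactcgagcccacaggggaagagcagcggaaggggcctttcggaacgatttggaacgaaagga
MRPL42, chr12:93467264-93467513, + strand: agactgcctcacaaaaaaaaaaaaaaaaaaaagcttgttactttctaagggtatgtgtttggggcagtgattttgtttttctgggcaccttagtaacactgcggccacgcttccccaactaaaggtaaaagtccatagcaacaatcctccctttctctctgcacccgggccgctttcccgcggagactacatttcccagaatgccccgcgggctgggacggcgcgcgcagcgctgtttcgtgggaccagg

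The large subunit was set against the small one. The median log2 change was -0.22 over the 48 large subunit genes and -0.10 over the 27 small subunit genes, a difference of -0.12. The means were closer, -0.17 for the large and -0.12 for the small subunit, a difference of -0.05. Of the large subunit genes 40 had a change below 0, 31 had both arrays labelled double knockdown below both control arrays and 4 had them above both. Of the small subunit genes 19 had a change below 0, 15 had both arrays labelled double knockdown below both control arrays and none had them above. Over all genes tested, 52.0% had a change below 0. Both arrays labelled double knockdown lay below both control arrays for 29.3% of all genes and above both for 28.1%. The protein names do not settle the subunit in every case, since MRPS30 and MRPS18A sit in the large subunit of the structure. With these moved, the medians were -0.20 for the large and -0.15 for the small subunit, and their difference was -0.05. The difference of medians was also -0.062 with the mean of each gene's probe sets, -0.067 without control array 1 and -0.060 without control array 2. The size of the difference thus depended on the summary used, and no p is given for it because the members were chosen with results known.

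Array by array, the median large subunit gene lay at -0.25 and -0.18 in the arrays labelled double knockdown and at -0.08 and 0.08 in the control arrays, as log2 distance from the mean of the control arrays. The arrays of the groups did not overlap in that median. The median small subunit gene lay at -0.14 and -0.08 in the arrays labelled double knockdown and at -0.08 and 0.08 in the control arrays, so that the second array labelled double knockdown was level with control array 1. The 51 cytosolic ribosomal protein genes, which code for the ribosome outside mitochondria, lay within 0.02 of the control mean in the median of each array. Their probe sets had a median intensity of 13947, against 670.3 for the members and a highest value of 25464 among all genes, and whether changes are compressed at that brightness was not tested. Array 2 was brighter than array 1 for 65 of 75 members in the double knockdown label and for 65 of 75 in the control, against 54.4% and 52.0% of all genes. The median step between replicates was 0.11 in the arrays labelled double knockdown and 0.15 in the control arrays, beside a median change between the groups of -0.18.

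**Figure D3:**
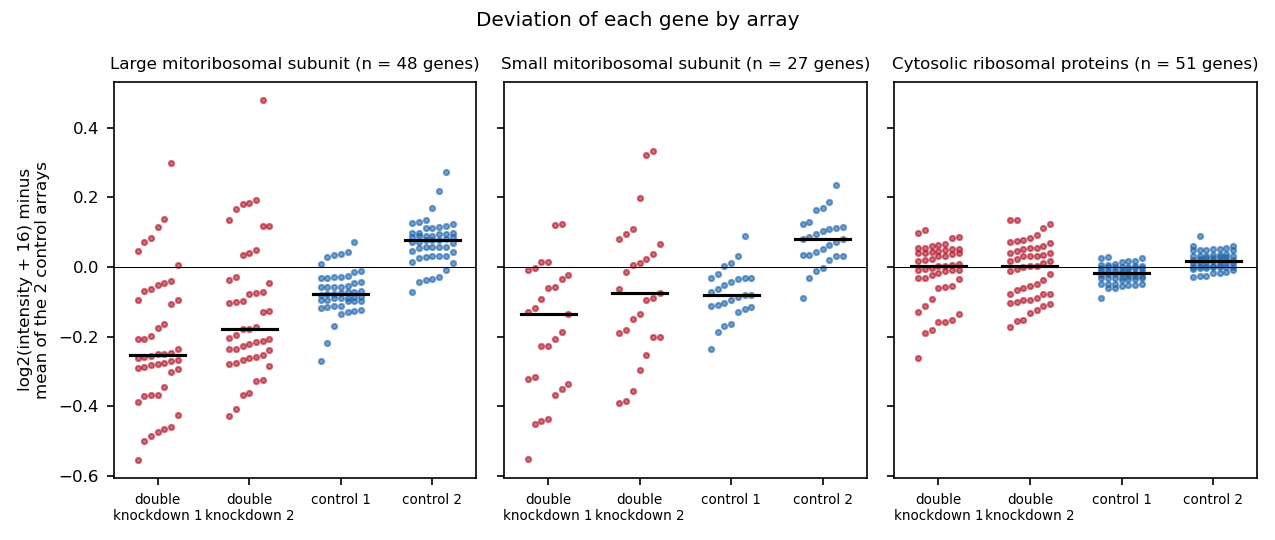
Log2(intensity + 16) of each gene minus the mean of the 2 control arrays (vertical axis), for each array, with the median as a bar, for 48 large subunit, 27 small subunit and 51 cytosolic ribosomal protein genes. The large subunit medians are -0.25 and -0.18 in the arrays labelled double knockdown and -0.08 and 0.08 in the control arrays, and those of the cytosolic genes, which are far brighter on the array, stay close to 0.

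The other large subunit genes were not called, and their values are given by role. In the central protuberance, MRPL38 had 148 and 165 in the arrays labelled double knockdown, against 210.3 and 189 in the control arrays, a change of -0.32 (adjusted p = 0.062). MRPL46, also of the crown, had a change of -0.15. MRPL27, the counterpart of a bacterial protein that reaches towards the site where peptide bonds form, had a change of -0.23. Both arrays labelled double knockdown were below both control arrays in all 3 genes, as in 29.3% of all genes and 34.3% of equally bright ones. In the stalk that recruits translation factors, the log2 change was -0.24 for MRPL12, -0.01 for MRPL11 and 0.07 for MRPL10. MRPL12 alone of these had groups that did not overlap. Around the exit tunnel, it was -0.25 for MRPL24, -0.20 for MRPL23, -0.15 for MRPL45 (the protein that anchors the ribosome to the inner membrane) and 0.08 for MRPL22. MRPL58, a peptidyl-tRNA hydrolase built into the subunit, had a change of -0.25 (adjusted p = 0.166).

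Bacterial-type core proteins of the large subunit ranged widely. The log2 change was -0.28 for MRPL21, -0.25 for MRPL1, -0.25 for MRPL30, -0.24 for MRPL3, -0.23 for MRPL4, -0.23 for MRPL13, -0.21 for MRPL16, -0.18 for MRPL28, -0.16 for MRPL19 and -0.30 for MRPL47. These 10 genes are listed together because both arrays labelled double knockdown were below both control arrays. The same held for 29.3% of all genes and 34.3% of equally bright ones. The log2 change was -0.14 for MRPL2, -0.13 for MRPL36, -0.10 for MRPL15 and 0.07 for MRPL35, where the groups overlapped. MRPL14, MRPL33 and MRPL32 were above 0, at 0.10, 0.13 and 0.15. MRPL2 was the dimmest member, with 93.3 and 112 in the arrays labelled double knockdown, against 96.5 and 136 in the control arrays. Its lower control array lay between the arrays labelled double knockdown. MRPL33 had 2352 and 2545 in the arrays labelled double knockdown, against 2089 and 2393 in the control arrays. MRPL36 had 2384 and 2669 in the arrays labelled double knockdown, against 2547 and 2981 in the control arrays. The groups overlapped in both.

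Among the proteins of the large subunit without a bacterial counterpart, the log2 change was -0.29 for MRPL49, -0.26 for MRPL41, -0.24 for MRPL52, -0.14 for MRPL39 and -0.10 for MRPL43. In each of these both arrays labelled double knockdown were below both control arrays, as in 29.3% of all genes and 34.3% of equally bright ones. The change was -0.13 for MRPL54, -0.06 for MRPL50, -0.02 for MRPL55 and -0.0050 for MRPL51, with overlap. MRPL51 was among the brightest, with 3112 and 3315 in the arrays labelled double knockdown, against 2969 and 3498 in the control arrays, and its 95% interval ran from -0.25 to 0.24. MRPL50 had 508 and 497 in the arrays labelled double knockdown, against 430.4 and 635 in the control arrays, the widest gap between control arrays of any member, so its change is poorly known. MRPL57, another bright one, had 3539 and 3712 in the arrays labelled double knockdown, against 3059.5 and 3494 in the control arrays, with a change of 0.15 (adjusted p = 0.361).

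The highest change of any member belonged to MRPL42, a mitochondria-specific protein. Its intensity was 1119 and 1271 in the arrays labelled double knockdown, against 823 and 997 in the control arrays. Both arrays labelled double knockdown lay above both control arrays, with a log2 change of 0.39 ± 0.12 that missed the threshold (adjusted p = 0.0605). It was called higher with an intensity trend in the prior, quantile normalization, a stricter brightness filter, the sample number as a block or without control array 2. MRPL32, with 2019 and 2063 in the arrays labelled double knockdown, against 1714 and 1963 in the control arrays, was the second highest of the large subunit (adjusted p = 0.342). MRPL42, MRPL32, MRPL57 and MRPL14 were the 4 members whose arrays labelled double knockdown were both above the control arrays.

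The small subunit genes without a call follow. Proteins of the decoding side include MRPS12, with 2460.0 and 2666 in the arrays labelled double knockdown, against 2384 and 2669 in the control arrays, with a change of 0.02. The groups overlapped there. MRPS5, by the entry of the messenger channel, had a change of -0.16, MRPS2 one of -0.25 and MRPS9 one of -0.27. Other bacterial-type proteins were MRPS10 at -0.31, MRPS11 at -0.25, MRPS7 at -0.15, MRPS17 at -0.05, MRPS16 at 0.05, MRPS21 at 0.03 and MRPS14 at 0.11. MRPS21 was the brightest member, with 4523 and 4744 in the arrays labelled double knockdown, against 4202 and 4894 in the control arrays, and its groups overlapped. MRPS11 was among the dimmest of the subunit, with 264 and 293 in the arrays labelled double knockdown, against 306 and 365 in the control arrays, and its groups did not overlap.

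Of the remaining small subunit proteins, most of them without a bacterial counterpart, the log2 change was -0.32 for MRPS26, -0.28 for MRPS23, -0.25 for MRPS25, -0.19 for MRPS27, -0.10 for MRPS22, -0.07 for MRPS31, -0.06 for MRPS28 and -0.01 for MRPS35. The groups overlapped for MRPS28 and MRPS35 and for none of the other 6. In those 6 both arrays labelled double knockdown were below both control arrays, as in 29.3% of all genes and 34.3% of equally bright ones. MRPS25, the dimmest of the subunit, had 233 and 277 in the arrays labelled double knockdown, against 281 and 333 in the control arrays. MRPS33 had 1202 and 1386 in the arrays labelled double knockdown, against 981 and 1245 in the control arrays, a change of 0.22 with overlapping groups (adjusted p = 0.305).

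The MRPS18 proteins are 3 paralogs of the same bacterial protein that sit at different places: MRPS18C takes the bacterial place and MRPS18B another place in the small subunit, whereas MRPS18A is part of the large subunit. MRPS18A had 304 and 349 in the arrays labelled double knockdown, against 321 and 330.1 in the control arrays. MRPS18B had 821 and 804 in the arrays labelled double knockdown, against 813 and 811 in the control arrays. MRPS18C had 913 and 1058 in the arrays labelled double knockdown, against 734 and 954 in the control arrays. The groups overlapped for each paralog. The log2 change was 0.0015 for MRPS18A (95% interval -0.22 to 0.22), 0.00063 for MRPS18B (95% interval -0.19 to 0.19) and 0.23 for MRPS18C (95% interval -0.09 to 0.54). MRPS30, also placed in the large subunit, had 646 and 691 in the arrays labelled double knockdown, against 657 and 688 in the control arrays, with a change of -0.01. Over all members, 13 of the 64 without a call had an adjusted p under 0.1 (limma). That share was not counted over all genes, so nothing is read from it. Of the same 64, 35 had both arrays labelled double knockdown below both control arrays, as had 29.3% of all genes and 34.3% of equally bright ones.

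Other probe sets of the same genes were read as a repeat on different oligonucleotides of the same arrays. For 30 members 46 further probe sets were above the brightness minimum, and 36 had the sign of the brightest one. Of the called genes 3 had a further probe set, and it was lower in each: -0.46 for MRPS15, -0.38 for MRPL9 and -0.32 for MRPL44, as log2 change. MRPL42 had further probe sets at 0.26 and 0.01. MRPL35 disagreed: its brightest probe set had 531 and 629.8 in the arrays labelled double knockdown, against 503 and 599.7 in the control arrays, a change of 0.07, while its further probe sets had changes of -0.45 (unadjusted p = 0.0453) and -0.19 (unadjusted p = 0.0102, limma). These were the only probe sets of opposite sign at an unadjusted p under 0.05. The p-values of further probe sets come from a separate limma fit to all 54675 probe sets, without the brightness minimum. They are therefore not directly comparable with the p-values of the gene fit.

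The remaining probe sets of opposite sign missed that threshold. MRPL12 had 652 and 614 in the arrays labelled double knockdown, against 756 and 747 in the control arrays on its brightest probe set (-0.24) and a further one had a change of 0.14. MRPL30 had 413 and 438 in the arrays labelled double knockdown, against 487 and 529.9 in the control arrays (-0.25), and 2 of its 4 further probe sets had changes above 0, 0.08 and 0.02. MRPL57 had 1 further probe set at -0.16, MRPS14 1 at -0.11 beside 0.11, with 1152 and 1309 in the arrays labelled double knockdown, against 1015 and 1280.0 in the control arrays. MRPS12 had 2, at -0.03 and -0.07, and MRPS18B 1, at -0.02. Some probe sets kept their sign and differed in size: the brightest of MRPS10, with 724 and 648 in the arrays labelled double knockdown, against 905 and 799 in the control arrays, had a change of -0.31 and the others of -0.03 and -0.02. For MRPS5 the values were -0.16 and -0.41. Which transcript each probe set reads was not analysed here.

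**Figure D4:**
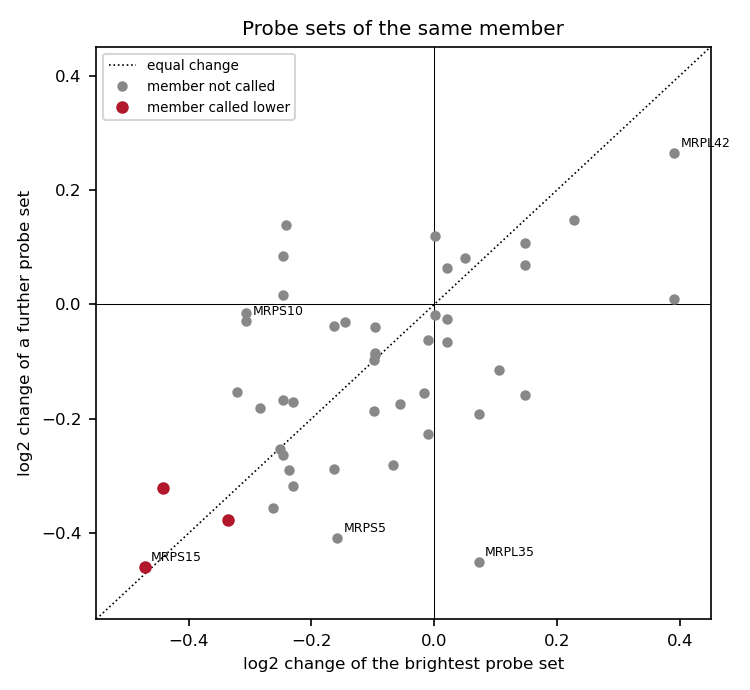
Log2 change (arrays labelled double knockdown minus control arrays) of each further probe set above the brightness minimum (vertical axis) against that of the brightest probe set of the same gene (horizontal axis), for 46 further probe sets of 30 members. The 3 further probe sets of called genes (red) lie below 0, and those of MRPL35 lie at -0.45 and -0.19 beside 0.07 on its brightest.

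The change was also set against brightness, without a test. Across the 75 members, log2 change and log2 brightness had a Pearson r of 0.28 and a Spearman rho of 0.23, a description over genes that share the same 4 arrays, and across the 6089 equally bright genes r was -0.01. The median change was -0.23 in the 25 dimmest members, of which 24 were below 0, -0.14 in the middle 25, of which 19 were below 0, and -0.13 in the 25 brightest, of which 16 were below 0. Of the 11 called genes 3, 3 and 5 came from these groups (12%, 12% and 20%, against 9.87% of equally bright genes and 6.6% of all genes). On probe sets whose type can match several transcripts, 34 of 46 members were below 0 and 5 were called (10.9%). On other probe sets 25 of 29 were below 0 and 6 were called (20.7%). Of all genes tested, 52.0% were below 0 and 6.6% were called lower. Those shares were not split by probe set type, so nothing is read from the difference.

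The rest of the machinery for mitochondrial gene expression was read beside the subunits, from lists chosen by function. Of 5 further subunits whose symbols do not begin with MRP, none was called in either direction, none had an unadjusted p under 0.05, and the median log2 change was -0.03. Their changes were -0.18 for CHCHD1, 0.13 for NDUFAB1 (the mitochondrial acyl carrier protein), -0.09 for GADD45GIP1, -0.03 for PTCD3 and -0.02 for DAP3. The shares called over all genes tested, 6.6% lower and 9.41% higher, are the background for each list that follows. Among the 6089 genes as bright as the members, the shares were larger, 9.87% lower and 12.6% higher. Each list also holds genes outside that range of brightness, and no share was matched to the brightness of a list. Of 26 assembly factors 3 fell (11.5%, against 6.6% of all genes) and none was called higher, with 0 higher at an unadjusted p under 0.05 and a median of -0.09. MTERF4, which brings a ribosomal RNA methyltransferase to the large subunit, had 79.2 and 69.6 in the arrays labelled double knockdown, against 105 and 123 in the control arrays, and fell by 0.52 (adjusted p = 0.0159). MTERF3 fell by 0.35 and GTPBP6, a GTPase of large subunit assembly, by 0.32, while FASTKD2, which binds the large ribosomal RNA, had a change of -0.34 (adjusted p = 0.0504).

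Among 15 mitochondrial translation factors 1 fell and 1 rose (6.67% each, against 6.6% lower and 9.41% higher of all genes), and the median was -0.11. GFM1, the elongation factor that moves the ribosome along, had 350.2 and 357 in the arrays labelled double knockdown, against 515 and 498 in the control arrays, and fell by 0.50 (adjusted p = 0.00821). HEMK1, which methylates release factors, had 159 and 144 in the arrays labelled double knockdown, against 99.5 and 120.1 in the control arrays, and rose by 0.42 (adjusted p = 0.0371). Of 18 mitochondrial aminoacyl-tRNA synthetases and their partners 2 fell (11.1%, against 6.6% of all genes), LARS2 by 0.41 and CARS2 by 0.38, and 1 rose (5.56%, against 9.41%), WARS2 by 0.32, with a median of -0.14. Of 23 genes of mitochondrial RNA synthesis and processing 5 fell (21.7%, against 6.6% of all genes) and none rose (against 9.41%), with 0 higher at an unadjusted p under 0.05 and a median of -0.06. These were TFB2M (by 0.46) and POLRMT (by 0.36), which start transcription of the mitochondrial genome, TRMT10C (by 0.44), a subunit of its RNase P, FASTKD1 (by 0.38), and PNPT1 (by 0.32), an exonuclease.

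Of 18 genes of mitochondrial protein import, the route by which ribosomal proteins enter, 5 fell (27.8%, against 6.6% of all genes), 1 rose (5.56%, against 9.41%) and the median was -0.17. XPNPEP3, a peptidase that trims imported proteins, had 167 and 191 in the arrays labelled double knockdown, against 271 and 279 in the control arrays, and fell by 0.58 (adjusted p = 0.00726). TIMM50 and TIMM21, of the inner membrane gate, fell by 0.43 and 0.49, TOMM40, the outer membrane channel, by 0.35 and PMPCA, of the protease that removes targeting sequences, by 0.34. TIMM17A, a core part of the same inner membrane gate, rose by 0.30 (adjusted p = 0.0456). None of 9 regulators of nuclear genes for mitochondria was called, with 1 lower and 2 higher at an unadjusted p under 0.05 and a median of -0.03. GABPA had a change of 0.22 (adjusted p = 0.153), its partner GABPB1 one of 0.30 (adjusted p = 0.0743) and the coactivator PPARGC1B one of -0.46 (adjusted p = 0.0702). None of 51 cytosolic ribosomal protein genes, whose brightness is given above, was called, none had an unadjusted p under 0.05, and the median was 0.01. The 13 transcripts encoded by mitochondria themselves had no probe set matched to them and were not analysed here.

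**Figure D5:**
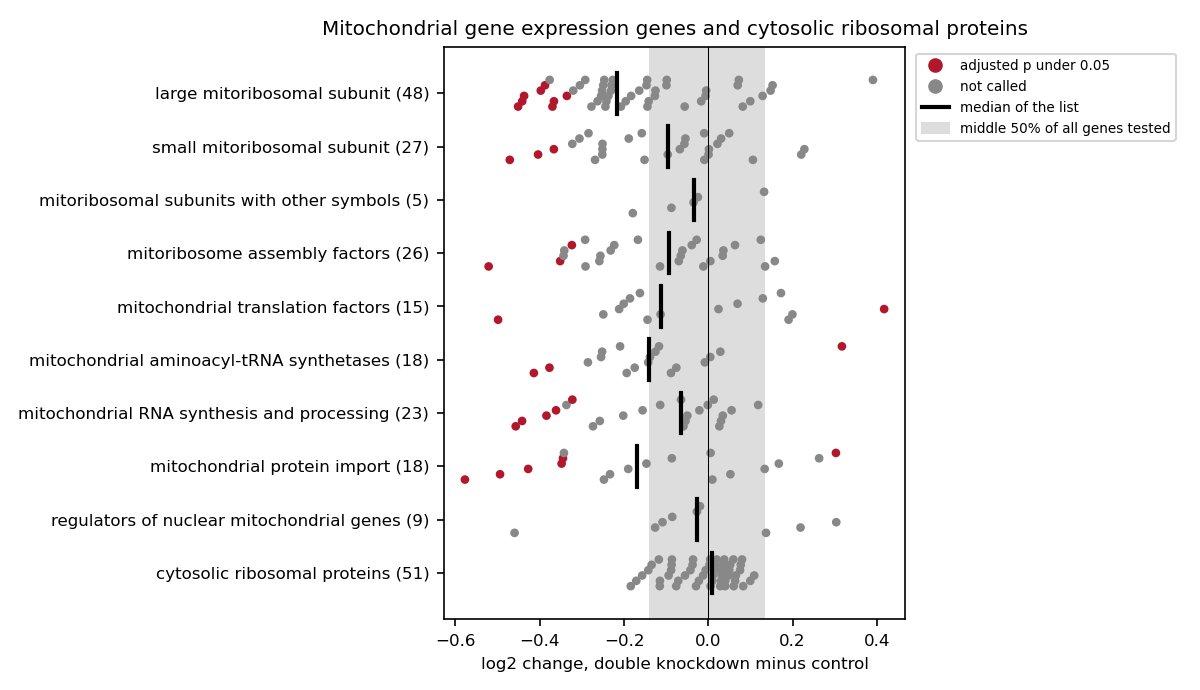
Log2 change (horizontal axis, arrays labelled double knockdown minus control arrays) of each gene in 10 lists, with the number of genes tested in brackets, the list median as a black bar and the middle 50% of all genes tested as a grey band. The large subunit median is -0.22 and that of protein import -0.17, both left of the band, while that of cytosolic ribosomal proteins is 0.01.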

How the data were processed

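The series table holds 1 deposited intensity per probe set and array, on a linear scale as judged from its range. The authors' summarisation and normalization steps are not stated in the labels. Array medians differed little (14.5 to 14.7), so nothing was rescaled. The number of arrays, 4, limits the precision. Of 54675 probe sets, 62 controls were left out and 41091 named 1 gene in the platform annotation. Symbols were updated through RefSeq (GRCh38.p14) for 41037 of these. Each gene was represented by its brightest probe set, and genes with a mean of at least 14.7, the median of all probe sets, were tested (12951 of 19777).

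Deposited intensities were taken here to log2(intensity + 16), a scale on which changes of dim genes are understated. Arrays labelled double knockdown were compared with control arrays, grouped by their titles, by the two-sided moderated test of limma 3.58.1 (lmFit, then eBayes with a constant prior) under R 4.3.3. All p-values of genes are limma's, adjusted by the Benjamini-Hochberg method over all 12951 genes unless called unadjusted, and a call means an adjusted p under 0.05. Errors and intervals are moderated. The test was run on simulated data for this comparison, with 200 of 12951 genes changed; 6.49% of its calls were unchanged genes.

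The members and the lists were chosen with earlier results of these data known, so no list has a p. Genes were named by rule: every member, the called members, the highest and lowest, the brightest and dimmest, those whose probe sets disagree, and up to 4 genes of each list with the smallest p; further list genes behind a small count were named after their values were seen. Alternatives covered the constant, scaling, brightness filter, choice of probe set, prior, replicate block and leaving out each array. Titles give sample numbers only, which share no stated origin.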

Additional observations from a re-analysis of the deposited data

How the results depend on the processing

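No called member changed sign under any alternative run, and the change was below 0 for 51 to 67 of 75 members wherever all were tested. With a constant of 4 the count of members called lower was 6 (8%, against 5.27% of all genes). With no brightness filter it was 4 (5.33%, against 3.04% of all genes). With probe sets of several possible transcripts left out it was 6 of 39 tested (15.4%, against 5.90% of all genes). With a constant of 64, array centring, quantile normalization, a stricter filter or a trend in the prior all 11 remained called. When probe sets of a gene were averaged, 9 of 11 remained, MRPL20 and MRPS15 having lost the call. Members called higher numbered 1, MRPL42, with quantile normalization, the stricter filter, the trend or the replicate block.

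Leaving out 1 array gave 0 to 10 members called lower and 0 to 1 called higher, against 158 to 875 lower and 378 to 1120 higher among all genes; a lone array was assumed to vary like the other group. Without either array labelled double knockdown the members called lower were 0, without control array 1 they were 10 and without control array 2 they were 2. The same refits gave medians of -0.25 to -0.12 for the large subunit and -0.18 to -0.064 for the small one, and differences of medians of -0.12 to -0.060. That difference was -0.10 with a constant of 64, -0.11 with quantile normalization, -0.062 with averaged probe sets, -0.058 with probe sets of several possible transcripts left out, and -0.050 with the subunit taken from the structure. The cause of these moves was not tested.

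Same-numbered arrays shared deviations with a correlation of 0.244 across genes, but the labels give them no shared origin. With the sample number as a replicate block 15 members were called lower (20%, against 8.35% of all genes), and all 11 remained. In that run 1 member was called higher, against 1423 of all 12951 genes. Dim probe sets near the brightness minimum limit small changes; all members lay well above it, the dimmest at a mean of 109.5.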

Other observations

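Many nuclear genes for mitochondrial proteins share a start region with a neighbour on the opposite strand. A neighbour whose RefSeq start lies within 500 bases on the opposite strand was found for 15 of the 67 members with a promoter entry (22.4%), against 10.2% of all protein coding promoters. Both genes were tested in 12 distinct pairs: 6 had changes of the same sign, 6 of opposite sign, and no neighbour was called by limma. MRPL46 and MRPS11, a large and a small subunit gene whose starts are 320 bases apart, are each other's neighbour and had log2 changes of -0.15 and -0.25. MRPL27 had a log2 change of -0.23 and its neighbour EME1, which codes for a subunit of a DNA endonuclease, one of 0.25. MRPL49 had a change of -0.29 and its neighbour FAU, which codes for a protein of the cytosolic small subunit, one of 0.04. MRPS12 had a change of 0.02 and its neighbour SARS2, a mitochondrial seryl-tRNA synthetase, one of -0.19. The neighbours of the called genes MRPL18 (TCP1) and MRPL37 (CYB5RL) were not tested.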
